A study of Homo sapiens with 6 samples.

Results

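The genes described here are the 5 subunits of the transcription factor NF-kB, 3 of its IkB inhibitors, the kinase NIK and the ubiquitin editor A20. They were chosen by gene symbol as NFKB1, NFKB2, REL, RELA, RELB, NFKBIA, NFKBIB, NFKBIE, MAP3K14 (NIK) and TNFAIP3 (A20), and all 10 were found among the 60624 genes of the deposited count table. PolyA RNA had been sequenced from A549, a human lung cancer line, as 3 libraries of RAVER1 knockout cells made with CRISPR/Cas9 and 3 libraries of parental cells, called WT. No treatment other than the genotype is given, and both groups share the A549 background. The knockout titles carry the label KO2 without saying whether it is 1 clone. Each p-value thus covers variation among the 6 libraries, and independently made knockout lines were not compared.

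NF-kB proteins bind DNA as dimers of the subunits, and in resting cells they are held in the cytoplasm by IkB proteins. In the canonical arm, receptors such as those for TNF and IL-1 activate the IKK complex, which marks IkB proteins for destruction and frees dimers of RELA or REL with p50, the product of NFKB1. In the non-canonical arm, NIK accumulates and, through IKK alpha, triggers the cutting of p100, the product of NFKB2, into p52, which acts with RELB. NFKB2, RELB, NFKBIA, NFKBIE and TNFAIP3 are themselves known targets of NF-kB, and A20 and IkB alpha are classical feedback brakes.

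The kappaB consensus is the 10-base sequence, with GGG at one end and CC at the other, that NF-kB dimers bind. It was searched on both strands of RefSeq promoter windows (GRCh38.p14, 250 bases before to 50 after a gene start), because many of the genes are known to be controlled by NF-kB itself. The windows covered 8 of the 10 genes with 13 gene starts, and RELB and NFKBIE had no entry. At least 1 match stood in a window of 6 of these 8 genes, against 13.3% of the 27305 genes searched, and in 7 of the 13 windows, against 11.3% of 35116. The stretches below, each 30 bases on the gene's own strand with the match in capitals, show 8 of these matches, at least 1 for each gene that had one.
NFKB2, start 2: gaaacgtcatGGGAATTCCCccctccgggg
NFKB2, start 2: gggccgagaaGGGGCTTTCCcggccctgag
NFKB2, start 3: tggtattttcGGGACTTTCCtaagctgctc
REL: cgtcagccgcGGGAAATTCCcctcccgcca
NFKB1, start 1: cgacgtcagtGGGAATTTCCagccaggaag
NFKBIA: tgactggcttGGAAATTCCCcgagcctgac
NFKBIB, start 2: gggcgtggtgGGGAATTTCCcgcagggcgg
TNFAIP3: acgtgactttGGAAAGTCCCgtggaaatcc

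The NFKB2 stretches lie at chr10:102394461-102394490, chr10:102394490-102394519 and chr10:102395674-102395703 on the plus strand, with matches that begin at -107, -78 and -21 bases from their gene start. Those of REL (chr2:60881517-60881546), NFKB1 (chr4:102501300-102501329), NFKBIB (chr19:38899931-38899960) and TNFAIP3 (chr6:137867182-137867211) are also on the plus strand. Their matches begin at -47, -49, -28 and -67 bases, in that order. NFKBIA (chr14:35404811-35404840) is on the minus strand, with a match at -81 bases. No match was found in the windows of RELA and MAP3K14. When matches that overlap by at least 1 base are merged, the genes held 11 separate stretches, 4 of them in NFKB2. A match is a run of letters and not a measured binding site, and neither binding nor start use was measured here.

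Total counts were 31200927 to 39910127 per knockout library and 29811747 to 34359060 per WT library. RAVER1 itself had 110, 112 and 79 counts in knockout libraries, against 2510, 1996 and 2285 in WT libraries. The epithelial keratin KRT8 averaged 2267 CPM in knockout and 3761 CPM in WT libraries. Of the 6 epithelial markers listed, KRT8, KRT18, KRT19, EPCAM and CDH1 fell and KRT7 rose. Of 6 leukocyte markers, CD14 was the only one tested, with 4.51 ± 0.68 CPM in knockout and 5.49 ± 0.38 CPM in WT libraries (SD, n = 3 each). The summed level of the 6 was 3.92 to 5.25 CPM in knockout and 5.11 to 5.83 CPM in WT libraries, PTPRC stood below 0.1 CPM in each group's mean and CD3E was at 0 in all libraries. The 4 endothelial markers (PECAM1, VWF, CDH5 and KDR) summed to at most 0.129 CPM in a knockout and 0.0658 CPM in a WT library. Of 5 fibroblast markers, COL1A1 and PDGFRA rose, COL1A2 and LUM were not tested, and DCN was at 0. PDGFRA had low counts of 24, 22 and 18 in knockout and 6, 13 and 9 in WT libraries. The sum was 63.6 to 68.0 CPM in knockout and 46.7 to 49.7 CPM in WT libraries. Nearly all of it was COL1A1, which averaged 65.3 CPM in knockout and 47.7 CPM in WT libraries. Whether the changes in epithelial and fibroblast markers have a part in the NF-kB values was not tested.

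Both subunits of the non-canonical arm and its kinase were at least 2-fold higher in knockout cells, as was A20. The canonical subunits moved little, with RELA 1.16-fold and REL 1.32-fold higher and NFKB1 not past the threshold. Of the IkB inhibitors, NFKBIE and NFKBIA rose and NFKBIB did not pass. In bulk RNA a change in the share of cells that express a gene cannot be told apart from a change in its RNA per cell. The test was edgeR's quasi-likelihood test on the counts of all 16652 genes with enough reads, with Benjamini-Hochberg adjustment over all of them and a threshold of 0.05. All 10 genes had enough reads to be tested. Of these, 8 were higher in knockout cells and 2 did not pass, while 21.3% of all tested genes were higher, 20.1% were lower and 41.4% changed in either direction. A change of at least 2-fold was seen in 4 of the 10, against 6.83% of all tested genes in either direction. The median log2 fold change was 0.78 over the 10 genes and 0.0019 over all tested genes.

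NFKB2 (ENSG00000077150, hg38 chromosome 10, 102394110 to 102402529, plus strand) encodes p100, the precursor of p52. It had 116, 123 and 119 CPM (reads of the gene relative to the library total, after TMM scaling) in knockout libraries, against 37.7, 32.5 and 37.8 CPM in WT libraries. Every knockout library lay above every WT library, and the spread within each group was small beside the gap. NFKB2 rose by 1.73 on the log2 scale (SE 0.057, edgeR adjusted p 2.12e-14), which is 3.32-fold with a 95% interval of 3.05 to 3.61. Of all tested genes, 98.9% had a lower log2 fold change.

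RELB (ENSG00000104856, hg38 chromosome 19, 45001430 to 45038198, plus strand) encodes the partner of p52. It had 30.7, 32.7 and 30.9 CPM in knockout libraries, against 11.4, 9.91 and 10.7 CPM in WT libraries. The groups were separate, and the lowest knockout library was well above the highest WT library. RELB rose by 1.56 (SE 0.070, edgeR adjusted p 2.03e-12), or 2.94-fold with an interval of 2.65 to 3.26.

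MAP3K14 (ENSG00000006062, hg38 chromosome 17, 45263119 to 45317145, minus strand) encodes NIK, the kinase that starts p100 processing. Its level was 195, 200.5 and 187 CPM in knockout libraries, against 89.6, 84.4 and 89.5 CPM in WT libraries, and again no libraries of the groups overlapped. It rose by 1.14 (SE 0.045, edgeR adjusted p 2.83e-13), which is 2.21-fold with an interval of 2.07 to 2.36. Its exons share 713 bases with the antisense gene MAP3K14-AS1 on the opposite strand. The strand setting of the counting is not given in the sources used here, so reads from the shared stretch may not be separable. MAP3K14-AS1 had 272, 266 and 198 counts in knockout libraries, against 316, 309 and 299 in WT libraries, and fell by 0.50 (SE 0.090, edgeR adjusted p 0.000154). MAP3K14 itself had 5793 to 7976 counts in knockout libraries and 2565 to 3070 in WT libraries. The part of the shared stretch in the MAP3K14 change was not tested.

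**Figure D1:**
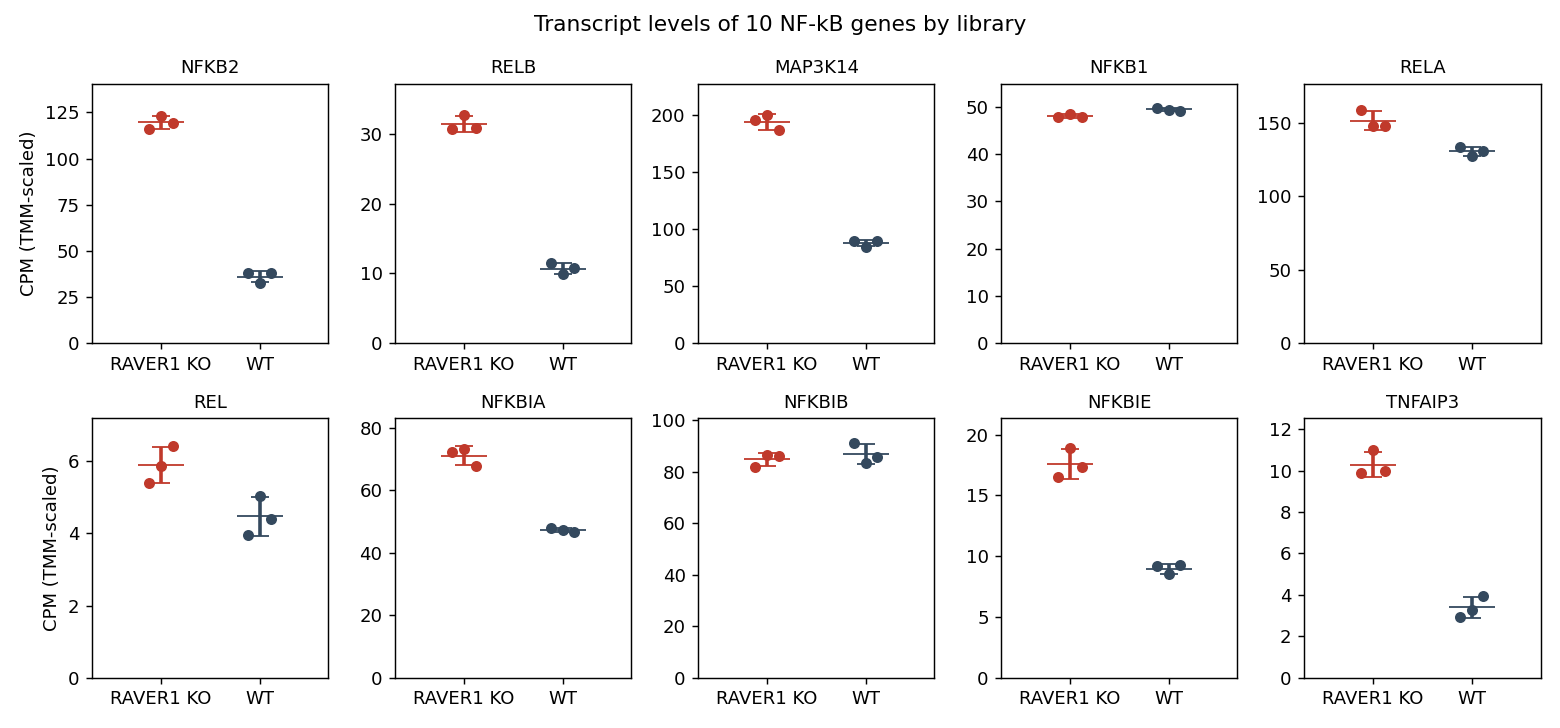
Levels of the 10 genes in CPM after TMM scaling (vertical axes, each from 0), with points for the 3 knockout libraries on the left and the 3 WT libraries on the right of each panel, and the mean ± SD as bars. NFKB2, RELB, MAP3K14, NFKBIE and TNFAIP3 show wide gaps between groups, while NFKB1 and NFKBIB stand at about the same height in both.

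NFKB1 (ENSG00000109320, hg38 chromosome 4, 102501329 to 102617302, plus strand) encodes p105, the precursor of p50. Its level was 47.9, 48.6 and 47.9 CPM in knockout libraries, against 49.9, 49.5 and 49.3 CPM in WT libraries. The knockout libraries were all slightly lower, yet the difference was not past the threshold, with a log2 fold change of -0.042 (SE 0.050, edgeR adjusted p 0.546). The 95% interval of the fold was 0.904 to 1.04.

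RELA (ENSG00000173039, hg38 chromosome 11, 65653596 to 65663094, minus strand) encodes p65, the main activating subunit of the canonical arm. It had 159, 148 and 148 CPM in knockout libraries, against 134, 128 and 131 CPM in WT libraries, with no overlap. RELA rose by 0.21 (SE 0.044, edgeR adjusted p 0.000706), or 1.16-fold with an interval of 1.09 to 1.24. The 895 tested genes of chromosome 11 had a median of 0.10. The 20 tested genes that flank RELA had a median of 0.23, and 12 of these 20 were higher. The part of this chromosome or neighbourhood in the RELA value was not tested. The exons of RELA share 9 bases with a non-coding gene on the opposite strand.

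REL (ENSG00000162924, hg38 chromosome 2, 60881521 to 60931610, plus strand) encodes c-Rel, best known from lymphocytes, and was the lowest of the 10 genes in counts per kilobase. It had 5.40, 5.88 and 6.41 CPM in knockout libraries, against 3.97, 5.04 and 4.40 CPM in WT libraries. The groups were separate by a narrow margin. REL rose by 0.40 (SE 0.12, edgeR adjusted p 0.00935), and the call was lost without WT replicate 1 (0.32, adjusted p 0.0571). REL lies on chromosome 2, where the median of 1125 tested genes was 0.42 and 66.8% of them were higher. Set against that median, REL stood at -0.020, and 48.1% of the tested genes of that chromosome had a lower value. For this relative value a t test with the standard error of the edgeR fit gave an adjusted p of 0.914. It took the median as fixed. REL shares 5702 of its 13172 exon bases with an overlapping non-coding gene on the same strand that had 0 counts in every library. Reads of that stretch may not have been assigned to either gene, and the REL level per kilobase is uncertain.

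The other 8 genes lay on chromosomes whose tested genes had medians between -0.045 and 0.014. The 20 flanking tested genes had medians of -0.041 around NFKB2, 0.037 around RELB, -0.16 around MAP3K14, -0.039 around NFKBIE and 0.074 around TNFAIP3. Around REL the flanking median was 0.28, and 13 of the 20 genes were higher. The part of the neighbourhood in these values was not tested.

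**Figure D2:**
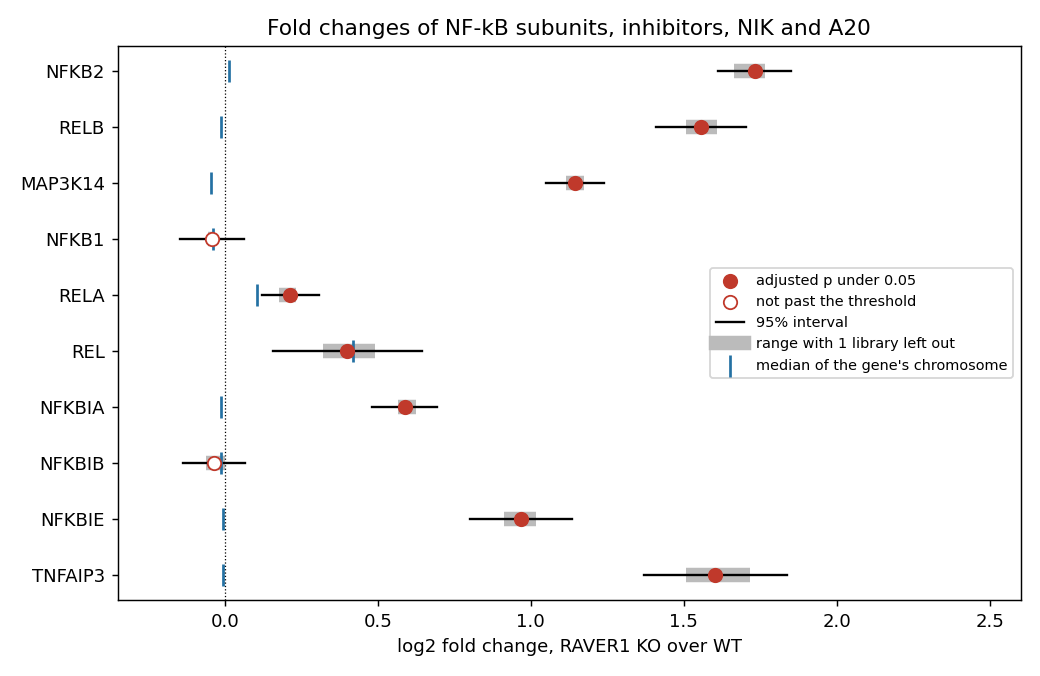
Log2 fold change of knockout over WT (horizontal axis) for each gene, with its 95% interval as a line, the range over fits with 1 library left out as a grey bar and the median of the gene's chromosome as a blue tick. NFKB2 (1.73), TNFAIP3 (1.60), RELB (1.56) and MAP3K14 (1.14) lie farthest right, and REL (0.40) lies at the tick of chromosome 2 (0.42).

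The IkB inhibitors bind the dimers and mask their nuclear import signal. NFKBIA (ENSG00000100906, hg38 chromosome 14, 35401511 to 35404749, minus strand) encodes IkB alpha. It had 72.3, 73.2 and 67.6 CPM in knockout libraries, against 47.8, 47.3 and 46.7 CPM in WT libraries. It rose by 0.59 (SE 0.051, edgeR adjusted p 2.04e-08), or 1.50-fold with an interval of 1.40 to 1.62. The knockout libraries were all higher than the WT libraries, which lay close together.

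NFKBIE (ENSG00000146232, hg38 chromosome 6, 44258166 to 44265788, minus strand) encodes IkB epsilon. It had 16.5, 18.9 and 17.3 CPM in knockout libraries, against 9.19, 8.49 and 9.23 CPM in WT libraries. It rose by 0.97 (SE 0.080, edgeR adjusted p 1.17e-08), or 1.96-fold with an interval of 1.74 to 2.20, with no overlap between groups. NFKBIB (ENSG00000104825, hg38 chromosome 19, 38899700 to 38908893, plus strand) encodes IkB beta. It had 81.9, 86.5 and 86.1 CPM in knockout libraries, against 91.1, 83.6 and 85.8 CPM in WT libraries. It was the only one of the 10 genes whose groups overlapped, at -0.034 (SE 0.048, edgeR adjusted p 0.615) and with a fold interval of 0.910 to 1.05. Its exons share 40 bases with SIRT2 on the opposite strand.

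TNFAIP3 (ENSG00000118503, hg38 chromosome 6, 137867188 to 137883312, plus strand) encodes A20, which edits ubiquitin chains on signalling proteins and so restrains IKK activation. It had 9.88, 11.0 and 9.99 CPM in knockout libraries, against 2.95, 3.29 and 3.94 CPM in WT libraries. The groups were far apart, and the coefficient of variation was 5.92% in knockout and 14.9% in WT libraries. Counts were 382, 437 and 310 in knockout and 101, 100 and 128 in WT libraries, so counting noise is larger in WT. Its part in the higher WT variation was not tested. TNFAIP3 rose by 1.60 (SE 0.11, edgeR adjusted p 1.03e-09), or 3.04-fold with an interval of 2.58 to 3.57. An overlapping antisense gene had 3 to 5 counts in knockout and 2 to 5 in WT libraries.

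Over the 10 genes, the groups did not overlap for 8 that were higher and 1 that was lower in knockout libraries. Among all tested genes the groups did not overlap in 50.2%, and in 25.3% with knockout libraries on the higher side.

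Levels were compared between genes per kilobase of the gene length in the table, as RPKM from TMM-scaled CPM. In knockout cells NFKBIB (36.5 ± 1.1 RPKM) and MAP3K14 (34.3 ± 1.2) were highest, followed by NFKBIA (29.9 ± 1.3), RELA (27.8 ± 1.2) and NFKB2 (25.4 ± 0.76). RELB (10.4 ± 0.36), NFKB1 (7.57 ± 0.060), NFKBIE (6.80 ± 0.47), TNFAIP3 (2.05 ± 0.12) and REL (0.448 ± 0.038) were lower (SD, n = 3 each). The ranges of NFKBIB and MAP3K14 overlapped, as did those of NFKBIA and RELA, so these neighbours could not be ordered.

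In WT cells the order of RPKM was NFKBIB (37.4 ± 1.7), RELA (24.0 ± 0.54), NFKBIA (19.9 ± 0.23), MAP3K14 (15.5 ± 0.52), NFKB1 (7.79 ± 0.049) and NFKB2 (7.63 ± 0.64). RELB (3.54 ± 0.25), NFKBIE (3.48 ± 0.16), TNFAIP3 (0.675 ± 0.10) and REL (0.339 ± 0.041) followed (SD, n = 3 each). NFKB1 overlapped NFKB2, and RELB overlapped NFKBIE.

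**Figure D3:**
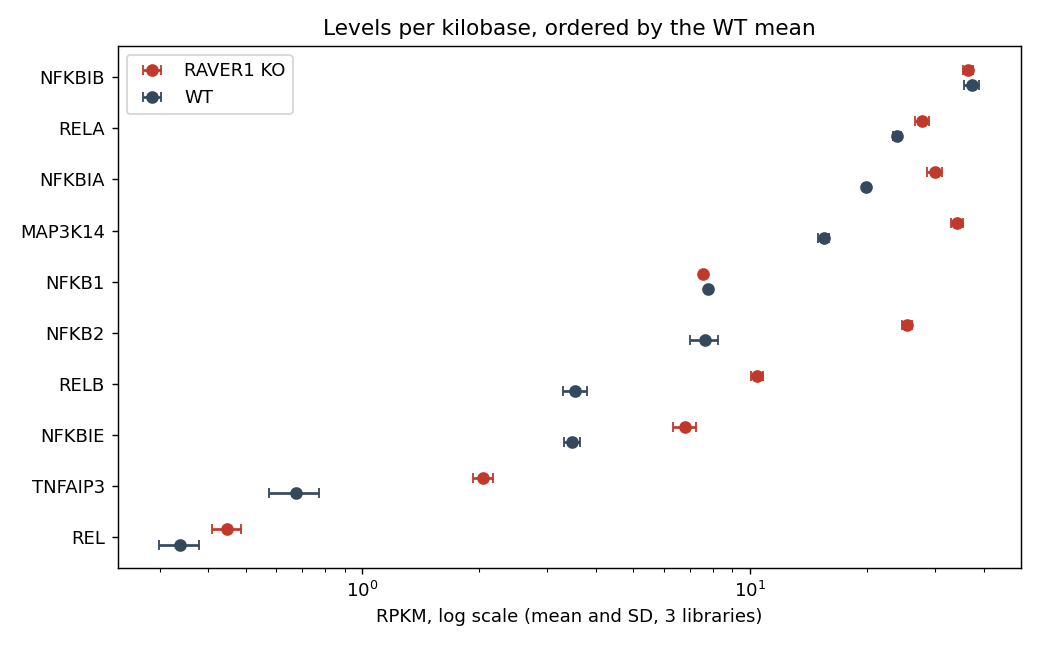
Mean RPKM ± SD of each gene on a log axis (3 libraries per group, knockout above WT), with genes ordered by the WT mean. In WT cells NFKB2 sits beside NFKB1 at 7.63 and 7.79 RPKM, while in knockout cells NFKB2 is at 25.4 RPKM, near RELA at 27.8 RPKM.

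RNA levels of subunits of the 2 arms can be compared within a library, although such ratios do not measure the activity of either arm. The ratio of NFKB2 to NFKB1 in RPKM was 3.27, 3.42 and 3.36 in knockout libraries, against 1.02, 0.886 and 1.03 in WT libraries. The ratio of RELB to RELA was 0.349, 0.400 and 0.379 in knockout libraries, against 0.155, 0.140 and 0.148 in WT libraries. Both ratios were higher in every knockout library than in any WT library, and they are given as a description with no test. Without the length correction the ratios differ in level. Gene length cancels in the log2 difference between groups, so that difference is the same by construction. It was 1.78 for NFKB2 to NFKB1 and 1.35 for RELB to RELA.

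Of the summed RPKM of the 5 subunits, NFKB2 made up 35.4 ± 1.0% in knockout and 17.6 ± 0.99% in WT libraries. RELB made up 14.6 ± 0.44% in knockout and 8.18 ± 0.34% in WT libraries. RELA made up 38.8 ± 1.6% in knockout and 55.4 ± 0.60% in WT libraries (SD, n = 3 each for all shares). NFKB1 made up 10.6 ± 0.093% in knockout and 18.0 ± 0.54% in WT libraries. The sum itself was 71.6 ± 0.84 RPKM in knockout and 43.3 ± 1.4 RPKM in WT libraries. For the 3 IkB inhibitors the sum was 73.3 ± 1.9 RPKM in knockout and 60.8 ± 1.9 RPKM in WT libraries. NFKBIB made up 49.8 ± 1.3% of that sum in knockout and 61.5 ± 0.79% in WT libraries. RNA shares do not give protein amounts, and the cutting of p100 or p105 is not visible in gene counts.

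Set beside the promoter letters, of the 6 genes with a match NFKB2, REL, NFKBIA and TNFAIP3 rose, while NFKB1 and NFKBIB were not past the threshold. RELA and MAP3K14, with no match in their windows, rose as well. Whether matches and changes are related was not tested.

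By root-mean-square distance between log2 CPM centred over the 6 libraries, among 10898 other genes with at least 5 CPM on average, the genes most like NFKB2 were CCN5 (distance 0.061), HSPA2 (0.063) and PAPLN (0.070). Those most like RELB were SORCS2 (0.040), SERPINE2 (0.045) and BASP1 (0.057). With 2 groups this likeness mainly reflects a fold change of similar size, such as 1.78 for CCN5 and 1.56 for SORCS2 on the log2 scale.

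Other genes of the pathway were read from 6 lists by role, with 101 genes, of which 85 were tested, 30 rose and 17 fell. That is 55.3% past the threshold, against 41.4% of all tested genes, with a median of 0.084. Chromosome 2, where 66.8% of tested genes were higher, held 5 of the 85 tested genes. Of these 5, 2 rose, 1 brake and 1 target. The part of the chromosome in these calls was not tested. By list, the share past the threshold was 18.2% for kinases, 30.8% for brakes and 46.7% for receptors. It was 57.9% for adaptors and ligases, 83.3% for targets and 100% of the 3 ligands tested. The kinases of the pathway were mostly not past the threshold. Of 11 IKK and TAK1 module genes, 1 rose, 1 fell and 9 did not pass, with a median of -0.010. CHUK, which encodes IKK alpha, stood at -0.011 (SE 0.069, edgeR adjusted p 0.919) and was chosen for mention after its value was seen. MAP3K8, or TPL2, a kinase held by p105, rose by 0.70 (SE 0.085), and the TAK1 partner TAB1 fell by 0.30 (SE 0.059).

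Adaptors and ubiquitin ligases moved both ways, with 7 of 19 higher and 4 lower and a median of 0.064. TRAF1 rose by 1.74 (SE 0.12), the ligase BIRC3 (cIAP2) by 1.06 (SE 0.11) and TRAF3 by 0.42 (SE 0.045). TRAF3 and BIRC3 belong to the complex that degrades NIK in unstimulated cells. TRAF3 had 90.2 ± 1.3 CPM in knockout and 67.3 ± 1.4 CPM in WT libraries (SD, n = 3 each). PELI1, a ligase of Toll-like receptor signalling on chromosome 2, fell by 3.27 (SE 0.15), IRAK4 by 0.41 (SE 0.078) and RBCK1, a subunit of the linear ubiquitin ligase, by 0.35 (SE 0.044).

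Of 13 atypical IkB proteins and other brakes, 4 rose and 9 did not pass, with a median of 0.053. TNIP1, a partner of A20, rose by 0.63 (SE 0.043), to 223 ± 7.1 CPM in knockout against 144 ± 5.1 CPM in WT libraries. BCL3, a nuclear IkB protein that binds p50 and p52, rose by 0.21 (SE 0.059), or by 0.13 without knockout replicate 1 (edgeR adjusted p 0.0304). TNIP3 rose by 1.57 (SE 0.35) at low counts of 18, 25 and 18 in knockout and 5, 5 and 8 in WT libraries.

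Of 17 receptors, 15 were tested, 5 rose and 2 fell, with a median of 0.097. Without knockout replicate 3 or WT replicate 3, 3 rose. TNFRSF12A, the TWEAK receptor that feeds the non-canonical arm, rose by 0.22 (SE 0.044) and TLR1 by 1.23 (SE 0.19), although TLR1 resembles TLR6 closely enough that reads could be split between them. TLR6, given here for that likeness, was not past the threshold (0.097, SE 0.10). It averaged 10.9 CPM in knockout and 10.2 CPM in WT libraries, against 2.79 and 1.19 CPM for TLR1. The TNF receptor TNFRSF1A rose by 0.15 (SE 0.045), a call lost without WT replicate 3 (0.14, adjusted p 0.0572). TLR3 fell by 1.54 (SE 0.26). EDAR, the ectodysplasin receptor on chromosome 2, had 1, 0 and 1 counts in knockout and 99, 82 and 94 in WT libraries. The ratio of knockout to WT for EDAR was 0.00645, with an exact interval of 0.000778 to 0.0235 that covers counting error only, and it was 0.0101 without knockout replicate 2.

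Of 13 ligands, 10 had too few reads for the test, and TNF, LTA, LTB and CD40LG had 0 counts in every library. The 3 that were tested fell, TNFSF15 by 1.12 (SE 0.15), IL18 by 0.25 (SE 0.060) and TNFSF12, the TWEAK gene, by 0.26 (SE 0.080). The TNFSF12 call was lost without knockout replicate 2 (-0.22, adjusted p 0.0609) or WT replicate 1 (-0.23, adjusted p 0.0623).

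Of 28 NF-kB target genes, 24 were tested, 13 rose and 7 fell, with a median of 0.43. The growth factor CSF1 had 124 ± 2.4 CPM in knockout and 28.5 ± 1.5 CPM in WT libraries (SD, n = 3 each) and rose by 2.12 (SE 0.052). GADD45B rose by 0.77 (SE 0.060). The adhesion molecule VCAM1 had 163, 186 and 114 counts in knockout and 3, 1 and 1 in WT libraries, a ratio of 82.2 with an exact counting interval of 34.95 to 254. That ratio was 133 without WT replicate 1, which held 3 of the 5 WT counts. The chemokine CX3CL1 fell by 4.02 (SE 0.18), CXCL1 by 1.88 (SE 0.13) and PTGS2, the inducible cyclooxygenase, by 1.16 (SE 0.089). CXCL1 is a close copy of CXCL2 and CXCL3, with which it may share reads. Of these copies, given here for that likeness, CXCL2 rose by 1.09 (SE 0.15) and CXCL3 was not past the threshold (0.20, SE 0.13). Targets thus moved in both directions, and all genes named from the 6 lists as risen or fallen had edgeR adjusted p values of 0.0139 or less.

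**Figure D4:**
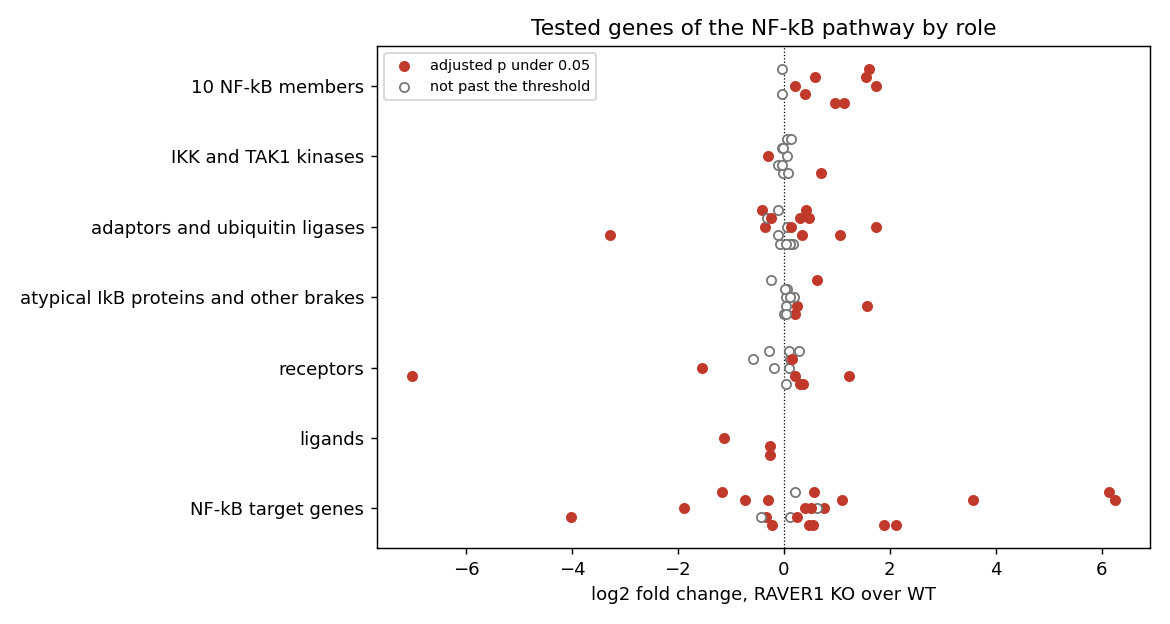
Log2 fold change of knockout over WT (horizontal axis) for each tested gene of the 10 NF-kB genes and of 6 lists by role, filled where the edgeR adjusted p was under 0.05. The 10 genes reach 1.73 with 8 filled on the right, the kinases cluster at 0, and targets spread to both sides.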

How the data were processed

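The table deposited by the authors gives raw, unnormalised counts for each gene in each library, with a gene length. The submitters' processing notes name cutadapt 2.8, HISAT2 2.1.0, SAMtools 1.10, featureCounts 2.0.0 and the build hg38. The kit was stranded, per the labels' protocols. Annotation release, strand setting and treatment of reads shared by genes are not given in these sources.

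Counts were filtered with filterByExpr, scaled with TMM and tested with edgeR 4.0.16 in R 4.3.3 over 16652 genes, without covariates, at an adjusted p of 0.05. The step was tested on simulated data. Standard errors are the log2 fold change over the root of its F value. Exon overlaps came from GENCODE release 29 on the same build. No libraries of a group agreed within sampling noise (chi-square per degree of freedom 2.41 to 8.86). Among the 10 genes, TNFAIP3 and REL had the fewest counts.

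The genes and lists were chosen with earlier results of these data known. Named were RAVER1, the 10 genes, in each list up to 3 higher and 3 lower genes by smallest adjusted p, the markers, and 3 genes most like NFKB2 and RELB. The alternatives tried were upper-quartile and RLE scaling, no filter, at least 1 CPM in 3 libraries, a replicate block, each library left out, DESeq2 1.42.0, limma-voom (limma 3.58.1) and a threshold of 0.01. Flanking genes, 10 on each side, and the promoter search were added after the data were seen.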

Additional observations from a re-analysis of the deposited data

How the results depend on the processing

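The count of 8 of 10 genes past the threshold held under both other scalings, both other filters, DESeq2, limma-voom, the threshold of 0.01 and 5 of the 6 fits with 1 library left out. It was 7 without WT replicate 1, where REL lost its call. REL ranged from 0.32 to 0.49 over the fits with 1 library left out, and stood at -0.020 relative to the median of chromosome 2. The other 9 genes kept their side of the threshold in all 14 alternatives each. NFKB2 ranged from 1.66 to 1.77, RELB from 1.51 to 1.61, MAP3K14 from 1.11 to 1.17 and TNFAIP3 from 1.51 to 1.72. NFKBIB, not past the threshold in any of them, ranged from -0.067 to 0.0024. Deviations of same-numbered libraries correlated at 0.216, 0.0914 and 0.0470. Knockout replicates 1 and 2 correlated best with the WT library of their own number, and replicate 3 with WT replicate 2 (0.0927). The labels do not say that the numbers pair samples, so the main fit had no block, and these values do not settle the pairing. With the replicate number as a block, 8346 genes passed in place of 6886, 55 genes of the 6 lists in place of 47, and the same number, 8, of the 10 genes. Among the short lists, counts moved by over 1.5 times for kinases (2 higher and 2 lower with the block, 2 higher without knockout replicate 1, and 2 lower with upper-quartile scaling). Receptors had 3 higher at the threshold of 0.01 and 1 lower with at least 1 CPM in 3 libraries, and brakes had 1 lower with the block, with upper-quartile scaling and without knockout replicate 3 or WT replicate 1. The TNFSF12 call was lost at 0.01. Depth limits TNFAIP3 (310 to 437 counts in knockout and 100 to 128 in WT libraries) and REL (199 to 234 in knockout and 136 to 153 in WT libraries) most among the 10 genes.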
